A study of Rattus norvegicus with 6 samples.

Results

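The fragments of serine tRNA in rat sperm were described here in fathers on a high-protein diet (HPD) and in fathers on a standard one (SD). Of 26562 annotated small RNA rows, 12 were taken, chosen by name and not by their values. They are the rows of tRNA-Ser-GCT, tRNA-Ser-AGA, tRNA-Ser-TGA and tRNA-Ser-CGA whose reads match the rat genome, each as a whole-tRNA row, a 5' end row and a 3' end row. The last 3 letters of each name are the anticodon, written as DNA. The 10 other tRNA-Ser rows, which count CCA ends or reads that do not match the genome, were left out. All rats were wild type Wistar males, 5 months old at sampling according to the labels. Both groups had their diet assigned at 10 weeks of age, and the HPD group received its diet for 2 to 3 months. Sperm was squeezed from the epididymis and exposed to a hypotonic shock against somatic cells, and small RNA of 3 individual rats per diet was sequenced. The libraries are called CTRL1, CTRL2 and CTRL3 for SD, and HPD2, HPD3 and HPD7 for HPD, after the columns of the tables.

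Serine is read from 6 codons by these isoacceptors. The tRNA with the anticodon GCT reads the codons AGC and AGT, while those with AGA, TGA and CGA read the box of codons that begin with TC. All serine tRNAs carry a long variable arm, which the seryl-tRNA synthetase recognizes. The same enzyme also puts serine on the selenocysteine tRNA, tRNA-SeC. Mature tRNAs can be cut in the anticodon loop, and in the mouse the resulting 5' fragments are abundant in sperm, are partly acquired in the epididymis and respond to the diet of the father.

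The libraries held 4141018 to 7920000 annotated reads in the SD group and 5703625 to 7697588 in the HPD group. Reads of the end rows were counted once in these sums. The miRNA share of these reads was 24.4 ± 4.14% in SD and 13.3 ± 1.92% in HPD fathers (mean ± s.d., n = 3 rats per diet). Of 10 germ cell miRNAs, all were detected and none passed the test in either direction, and their summed level was 12885 to 16162 CPM (counts scaled to a common library size) in SD and 16600 to 20094 in HPD libraries. Markers of other cells were detected too. None of their lists held a name at 0. Of all 1858 rows tested, 6.4% were called lower and 2.21% higher in HPD sperm, beside which the counts in these lists are to be read. The summed level of 5 leukocyte miRNAs was 1674 to 1990 CPM in SD and 805 to 863 in HPD libraries, and 4 of the 5 fell. That of 7 epithelial miRNAs was 6912 to 14288 in SD and 4865 to 8693 in HPD libraries, and 1 of 7 fell. The endothelial miR-126a fell as well (537 to 1150 CPM in SD and 172 to 281 in HPD libraries). Of the miRNAs of smooth muscle and stroma, 2 of 4 were lower at the threshold (6926 to 16808 in SD, 3871 to 10654 in HPD), of 3 erythroid ones 1 (194.2 to 303.9 in SD, 112.8 to 115.7 in HPD), and all 4 rows of 3 liver, kidney and gut miRNAs (590 to 805 in SD, 32.5 to 49.5 in HPD). The part of these shifts in the tRNA-Ser results was not tested, and fewer cells of a type cannot be told apart from less RNA per cell in bulk samples. The labels name no batch, and batch and diet cannot be told apart.

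Fragments of serine tRNA took up a larger part of the tRNA fragments of HPD sperm. The 4 whole-tRNA rows made up 18.0%, 15.9% and 20.8% of all mature tRNA reads in CTRL1, CTRL2 and CTRL3, and 29.7%, 28.1% and 27.6% in HPD2, HPD3 and HPD7. Each HPD library was above each SD library. The means were 18.2 ± 2.46% in SD and 28.5 ± 1.09% in HPD fathers, a difference of 10.2 percentage points, and no test was made of this sum. Of all annotated reads, the family made up 9.64 ± 1.73% in SD and 17.6 ± 0.512% in HPD fathers (± s.d., n = 3 rats per diet). Most of the difference lay in tRNA-Ser-GCT, whose share of the mature tRNA reads was 11.9 ± 2.02% in SD and 20.9 ± 1.26% in HPD fathers. The shares of the other isoacceptors were 4.36 ± 0.513% and 5.24 ± 0.300% for tRNA-Ser-AGA, 1.79 ± 0.186% and 2.10 ± 0.109% for tRNA-Ser-TGA, and 0.159 ± 0.0101% and 0.209 ± 0.0262% for tRNA-Ser-CGA, in SD and HPD fathers respectively.

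Reads that fit several RNAs were divided among them in the table, so a value that is not whole shows reads shared with another row. The 5' end row of tRNA-Ser-GCT held a whole number in all 6 libraries (within 0.005 of a read), and so did its 3' end row. The 5' end row of tRNA-Ser-AGA held one in 1 library, that of tRNA-Ser-TGA in 3 and that of tRNA-Ser-CGA in 1. The whole-tRNA rows held fractions of reads in each library. The split of reads between tRNA-Ser-AGA, tRNA-Ser-TGA, tRNA-Ser-CGA and other rows is therefore uncertain, while the ends of tRNA-Ser-GCT show no divided reads. RefSeq names 8 rat genes of tRNA-Ser with the anticodon GCT, 52 with AGA, 4 with TGA and 3 with CGA in the assembly GRCr8, and the rows do not separate these copies.

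tRNA-Ser-GCT was the second most abundant of 47 matched tRNAs by reads in both diets, and it rose in HPD sperm. Its level in the whole-tRNA row, as CPM scaled with TMM factors and not divided by length, was 58207 in CTRL1, 49530 in CTRL2 and 72397 in CTRL3. In HPD2, HPD3 and HPD7 it was 152020, 138608 and 117706. The lowest HPD library was thus well above the highest SD library. The log2 fold change of HPD over SD was 1.18 (2.27-fold, with a standard error, SE, of 0.20 and an adjusted *p* of 0.00451 in the quasi-likelihood test of edgeR over 1858 rows). The 5' end row, which holds nearly all of these reads, was at 56396, 47954 and 70280 under SD and at 148368, 135054 and 114910 CPM under HPD, with a log2 fold change of 1.19 (SE 0.20, adjusted *p* = 0.00447). Both rows also met the stricter rule of the study, which asks for 2-fold or more and for a mean normalized count over 200 besides the adjusted *p* of 0.05 or less, and which 1.51% of all rows tested met in this direction. Without CTRL2, the SD library with the lowest level, the log2 fold changes of both rows were 1.19, and neither was called any longer (adjusted *p* = 0.0543 and 0.0540).

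**Figure D1:**
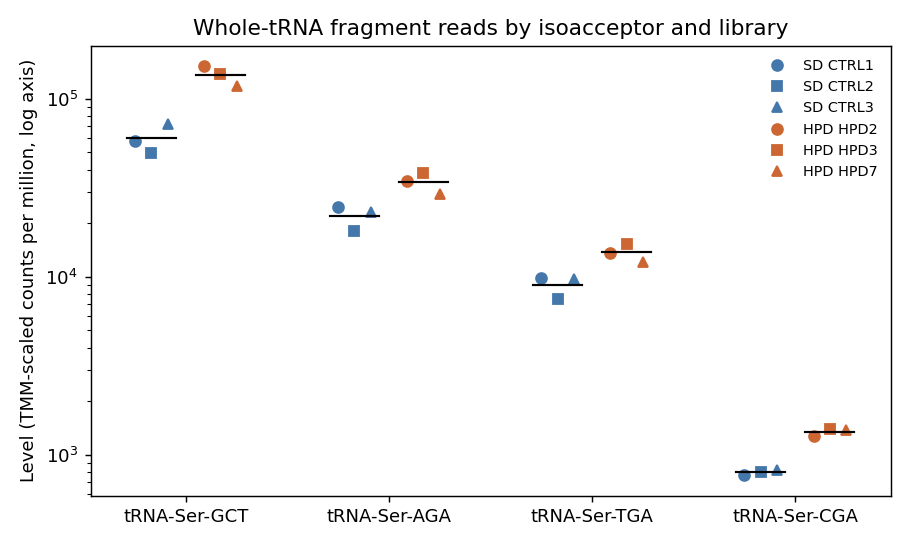
Level of the whole-tRNA rows in CPM scaled with TMM factors (vertical log axis) for the 4 serine isoacceptors, with a symbol per library, SD in blue and HPD in orange, and a line at each group mean. In every isoacceptor the 3 HPD libraries lie above the 3 SD libraries, with the widest gap for tRNA-Ser-GCT (60045 in SD and 136112 in HPD fathers on average).

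tRNA-Ser-AGA and tRNA-Ser-TGA were also higher in each HPD library than in each SD library, but neither passed the test. tRNA-Ser-AGA, the fourth most abundant matched tRNA in both diets, was at 24792, 18044 and 23044 CPM in CTRL1, CTRL2 and CTRL3 and at 34730, 38422 and 29176 in HPD2, HPD3 and HPD7. The gap between the highest SD and the lowest HPD library was smaller than the range within each diet. Its log2 fold change was 0.64 (SE 0.20, edgeR adjusted *p* = 0.0922), and that of its 5' end row 0.63 (adjusted *p* = 0.0922). It passed in 4 of 17 settings, with adjusted *p* from 0.00517 to 0.408 over them. tRNA-Ser-TGA was at 9785, 7509 and 9717 CPM under SD and at 13678, 15319 and 12073 under HPD. CTRL2 was the lowest library in both tRNAs, and HPD3 the highest. The log2 fold change of tRNA-Ser-TGA was 0.60 (SE 0.20, adjusted *p* = 0.109), and its 5' end row had the same value of 0.60 (adjusted *p* = 0.116). It passed in 2 of 17 settings, with upper quartile factors and with a mean normalized count of at least 50.

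tRNA-Ser-CGA is the rarest of the 4 and rose narrowly. Its whole-tRNA row was at 768, 799 and 819 CPM in the SD libraries and at 1268, 1402 and 1383 under HPD. The SD libraries lay close together, and the HPD libraries were clearly apart from them. The log2 fold change was 0.76 (SE 0.20, edgeR adjusted *p* = 0.0412). Its 5' end row was at 645, 657 and 668 under SD and at 1097, 1167 and 1225 CPM under HPD, with a log2 fold change of 0.82 (SE 0.20, adjusted *p* = 0.0293). Neither row reached the fold change of 2 that the study asks for. The whole-tRNA row lost its call without any 1 of the 6 libraries (adjusted *p* from 0.0536 to 0.211, log2 fold change 0.76 to 0.89), and the 5' end row kept it only without HPD7.

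In total, 11 of the 12 rows passed the filter on low counts, and 4 of them were called higher and none lower in HPD sperm at an adjusted *p* of at most 0.05. In the same direction 2.21% of all 1858 rows tested were called, as were 25.5% of the matched whole-tRNA rows, 23.9% of the 5' end and 22.5% of the 3' end rows. The 4 calls are the whole and the 5' end rows of tRNA-Ser-GCT and tRNA-Ser-CGA, and since 5' end reads are counted again in the whole row, they stand for 2 tRNAs. The count was 0 in edgeR without CTRL2 (10 of 11 rows had an unadjusted *p* under 0.05 there, and 8 with all libraries), 2 without CTRL1, CTRL3, HPD2 or HPD3, and 5 without HPD7. In 9 of the 11 rows all HPD libraries were above all SD libraries, compared to 12.2% of all rows tested and, among matched tRNA rows, 63.8% of the whole, 50% of the 5' end and 37.5% of the 3' end rows. Higher levels in HPD sperm were thus frequent among matched tRNAs in general. The 43 other whole-tRNA rows had a median log2 fold change of 0.52, with 10 called higher (23.3%) and 2 lower (4.65%), and the median over all rows was 0.03. The values of the 4 serine whole-tRNA rows lay between 0.60 and 1.18. Among the 47 whole-tRNA rows ordered by log2 fold change from the highest, tRNA-Ser-GCT was at place 4, tRNA-Ser-CGA at 15, tRNA-Ser-AGA at 20 and tRNA-Ser-TGA at 22.

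**Figure D2:**
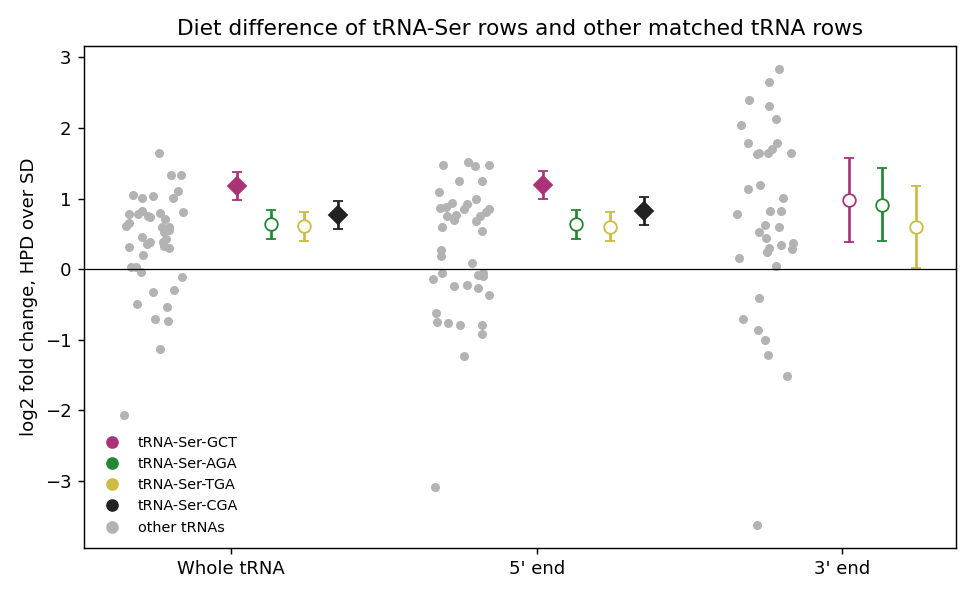
Log2 fold change of HPD over SD (vertical axis) for whole-tRNA, 5' end and 3' end rows, with the tRNA-Ser rows in colour (bars are standard errors, filled diamonds passed an adjusted p of at most 0.05, open circles did not) and the other matched tRNA rows in grey. The whole and 5' end rows of tRNA-Ser-GCT, at 1.18 and 1.19, lie above those of the other serine isoacceptors, and the 3' end rows have the widest errors.

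Reads in the matched 3' end rows of the serine tRNAs were rare. Reads that end in CCA are counted in rows left out here. The unmatched CCA end rows held 1535 to 6717 reads per library for tRNA-Ser-GCT and 3724 to 12695 for tRNA-Ser-TGA. The 3' end row of tRNA-Ser-GCT held 77, 81 and 10 reads in CTRL1, CTRL2 and CTRL3 and 107, 133 and 156 in HPD2, HPD3 and HPD7. As CPM, it was at 9.73, 18.4 and 2.17 in SD and at 21.1, 18.8 and 19.8 in HPD libraries. The groups did not overlap, but CTRL2 came close to HPD3, and the log2 fold change of 0.98 (SE 0.59, edgeR adjusted *p* = 0.515) did not pass. It was 1.84 without CTRL2 and 0.52 without CTRL3. The 3' end row of tRNA-Ser-AGA was at 5.68, 7.27 and 11.1 CPM in SD and at 11.6, 25.8 and 7.60 in HPD libraries, where HPD3 alone stood out. Its log2 fold change was 0.91 (SE 0.51, adjusted *p* = 0.443), and 0.30 without HPD3. The 3' end row of tRNA-Ser-TGA was at 2.40, 9.54 and 3.68 in SD and at 7.49, 10.7 and 5.06 CPM in HPD libraries. These groups overlapped, with a log2 fold change of 0.59 (SE 0.58, adjusted *p* = 0.767), which was 0.23 without CTRL1 and 1.504 without CTRL2. None of these 3' end rows passed the test in any setting tried. The 3' end row of tRNA-Ser-CGA did not pass the filter, with 3.5 estimated reads in CTRL1, 0.5 in CTRL2 and 0 in the other 4 libraries. In those 4 libraries a count of 0 allows a share of up to 0.0275% to 0.0794% of the tRNA-Ser-CGA reads. Such limits and the intervals given for shares cover counting error only, since reads are not independent molecules.

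Among the serine tRNA reads, tRNA-Ser-GCT took up a larger part in each HPD library. Its share of the reads of the 4 whole-tRNA rows was 62.2%, 65.3% and 68.3% in CTRL1, CTRL2 and CTRL3 and 75.4%, 71.5% and 73.4% in HPD2, HPD3 and HPD7. No HPD library fell within the SD range, and the means were 65.3 ± 3.05% and 73.4 ± 1.92% (± s.d., n = 3 rats per diet, two-sided exact permutation *p* = 0.1, adjusted over the 4 shares *p* = 0.133). With 3 rats against 3, 0.1 is the smallest *p* this test can give. The share of tRNA-Ser-AGA was 26.5%, 23.8% and 21.7% under SD and 17.2%, 19.8% and 18.2% under HPD (exact permutation *p* = 0.1, adjusted *p* = 0.133). The share of tRNA-Ser-TGA was 10.5%, 9.90% and 9.17% under SD and 6.78%, 7.91% and 7.53% under HPD, with the same exact *p* and adjusted *p*. Both were lower in each HPD library than in each SD library, while that of tRNA-Ser-CGA overlapped, at 0.882 ± 0.150% in SD and 0.738 ± 0.118% in HPD fathers (exact permutation *p* = 0.3, n = 3 rats per diet). The 95% Wilson interval of each of these shares was at most ± 0.162 percentage points. Within a library these shares sum to the whole, and a higher share of tRNA-Ser-GCT lowers the others.

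**Figure D3:**
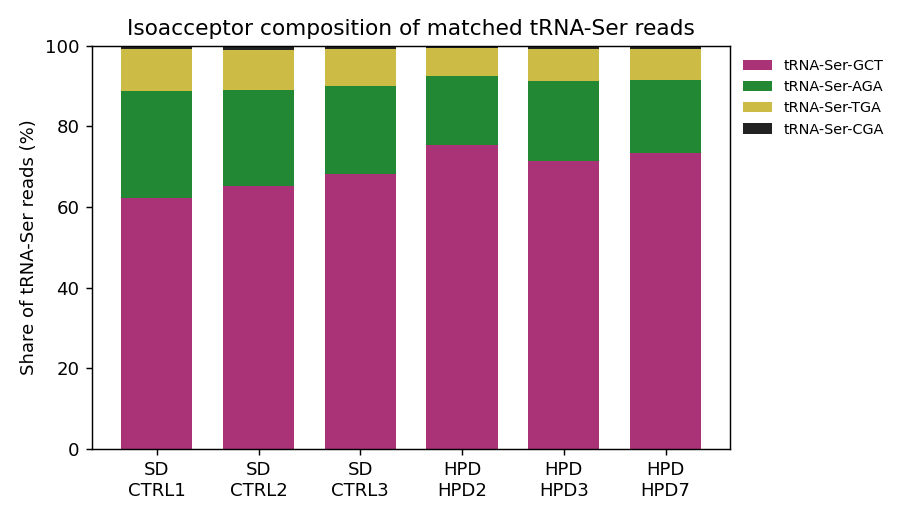
Share of each isoacceptor in the matched tRNA-Ser reads (stacked bars, in %, from 0 to 100) in the 3 SD and the 3 HPD libraries. tRNA-Ser-GCT takes up 62.2% to 68.3% of the bar in SD and 71.5% to 75.4% in HPD libraries.

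Ratios of isoacceptors within a library do not depend on the normalization, and they show which isoacceptors moved together. For each read of tRNA-Ser-AGA there were 2.35, 2.74 and 3.14 reads of tRNA-Ser-GCT in the SD libraries and 4.38, 3.61 and 4.03 under HPD. On the log2 scale this ratio was 0.55 higher in HPD fathers (1.45 ± 0.21 in SD and 2.00 ± 0.14 in HPD, ± s.d., n = 3 rats per diet, two-sided exact permutation *p* = 0.1, adjusted over the 6 pairs *p* = 0.3). The ratio of tRNA-Ser-GCT to tRNA-Ser-TGA was 0.58 higher, from 2.73 ± 0.16 to 3.31 ± 0.15 (exact permutation *p* = 0.1, adjusted *p* = 0.3). Both ratios were smaller in every SD library than in every HPD library. The ratio of tRNA-Ser-GCT to tRNA-Ser-CGA was 6.22 ± 0.26 and 6.65 ± 0.25 (exact permutation *p* = 0.2, adjusted *p* = 0.4), and its groups overlapped. With reads that do not match the genome added, this ratio was also higher in every HPD library, by 0.57 on average (5.78 to 6.29 in SD and 6.39 to 6.89 in HPD libraries, exact permutation *p* = 0.1).

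In contrast, the ratio of tRNA-Ser-AGA to tRNA-Ser-TGA was nearly constant over the rats. There were 2.53, 2.40 and 2.37 reads of tRNA-Ser-AGA for each read of tRNA-Ser-TGA in the SD libraries and 2.54, 2.51 and 2.42 under HPD. The log2 ratio was 1.28 ± 0.05 in SD and 1.32 ± 0.04 in HPD fathers, a difference of 0.03 that was smaller than the spread between libraries (exact permutation *p* = 0.4, adjusted *p* = 0.48). The part of divided reads in this ratio was not tested. Among the reads of tRNA-Ser-AGA, tRNA-Ser-TGA and tRNA-Ser-CGA alone, tRNA-Ser-AGA made up 69.1 ± 0.924% in SD and 69.3 ± 0.792% in HPD fathers, and tRNA-Ser-TGA 28.4 ± 0.635% and 27.9 ± 0.401% (± s.d., n = 3 rats per diet). The log2 ratios to tRNA-Ser-CGA differed by −0.12 for tRNA-Ser-AGA and −0.16 for tRNA-Ser-TGA, with overlapping groups (exact permutation *p* = 0.5 and 0.4, adjusted *p* = 0.5 and 0.48).

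**Figure D4:**
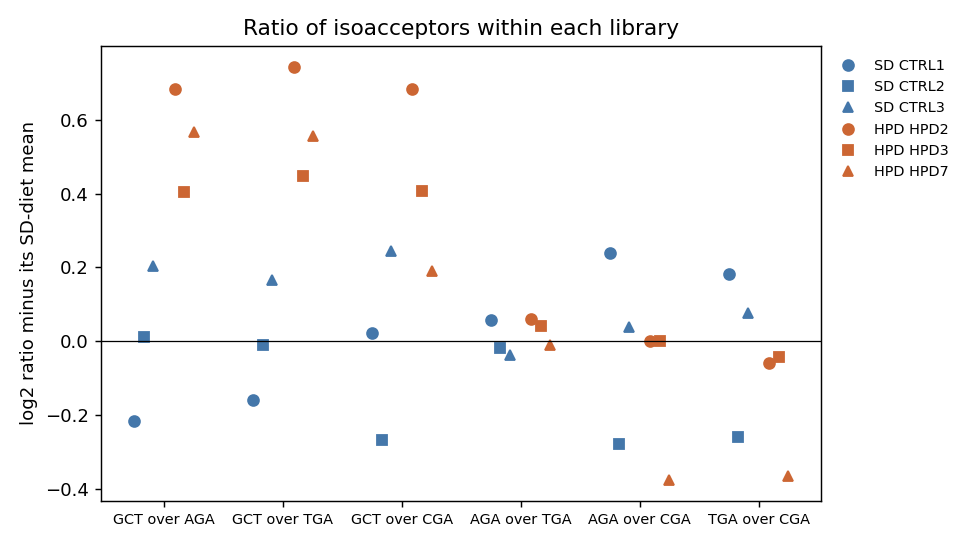
Log2 ratio of 2 isoacceptors within each library, minus the mean ratio of the SD libraries (vertical axis), for the 6 pairs, with SD in blue and HPD in orange. The HPD libraries lie above all SD libraries for tRNA-Ser-GCT over tRNA-Ser-AGA and over tRNA-Ser-TGA, by 0.55 and 0.58 on average, and overlap with them for the other pairs.

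The matched reads of serine tRNAs came mostly from the 5' end, and almost entirely so outside tRNA-Ser-CGA. CCA ends that do not match the genome are not in the shares below. For tRNA-Ser-TGA they averaged 959 CPM in SD and 1554 in HPD fathers, beside 9003 and 13690 in its matched whole-tRNA row. For tRNA-Ser-GCT they were at 464 and 829, beside 60045 and 136112. For tRNA-Ser-AGA they were at 241 and 206, beside 21960 and 34109, and for tRNA-Ser-CGA at 95.6 and 21.9, beside 795 and 1351. The 5' end row made up 97.7 ± 0.200% of the tRNA-Ser-AGA reads in SD and 97.7 ± 0.251% in HPD fathers (± s.d., n = 3 rats per diet). It made up 96.0 ± 0.533% and 95.6 ± 0.183% of tRNA-Ser-TGA, and 82.6 ± 1.25% and 86.1 ± 2.70% of tRNA-Ser-CGA. As a mean over the 6 libraries, these shares put tRNA-Ser-AGA first, tRNA-Ser-GCT second, tRNA-Ser-TGA at place 4 and tRNA-Ser-CGA at place 13 of the 46 matched tRNAs with a 5' end row. The 42 others had 5' shares from 2.11% to 96.1%, with a median of 53.4%. tRNA-His-GTG has no such row in the table and was left out here. The 3' ends made up 0.0190 ± 0.0172% of the tRNA-Ser-GCT reads in SD and 0.0147 ± 0.00178% in HPD fathers, 0.0368 ± 0.0128% and 0.0423 ± 0.0218% of tRNA-Ser-AGA, and 0.0632 ± 0.0552% and 0.0556 ± 0.0143% of tRNA-Ser-TGA.

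Between the diets, the end shares of tRNA-Ser-AGA, tRNA-Ser-TGA and tRNA-Ser-CGA overlapped, and only the 5' share of tRNA-Ser-GCT and its remainder did not. The 5' share of tRNA-Ser-GCT was 96.9%, 96.8% and 97.1% in CTRL1, CTRL2 and CTRL3 and 97.6%, 97.4% and 97.6% in HPD2, HPD3 and HPD7. Each HPD library was higher, by 0.626 percentage points on average (two-sided exact test by permutation, *p* = 0.1, and 0.55 when adjusted over 11 end shares), and the 95% Wilson interval of each value was at most ± 0.0737 percentage points. This difference lay against the remainder and not against the 3' end row, in which CCA ends are not counted. Of the reads of the 5' and 3' end rows alone, the 5' share was 99.96% to 100.00% in SD and 99.98% to 99.99% in HPD libraries. There the difference was 0.00446 percentage points, with overlapping groups (exact permutation *p* = 0.7). The remainder, which holds internal and matched CCA end reads, was 3.05 ± 0.117% in SD and 2.43 ± 0.103% in HPD fathers (± s.d., n = 3 rats per diet). A CCA end carries the bases added after transcription. The matched CCA end row of tRNA-Ser-GCT made up 0.294%, 0.362% and 0.421% of its matched whole-tRNA row under SD. Under HPD it made up 0.0402%, 0.0557% and 0.0565%. This matched row fell (log2 fold change −1.68, SE 0.30, edgeR adjusted *p* = 0.00606). A fall was common among such rows, since 64.7% of the 34 matched CCA end rows tested were called lower, compared to 6.4% of all rows. The unmatched CCA end row of tRNA-Ser-GCT went the other way, at 464 CPM in SD and 829 in HPD fathers on average. It was higher in each HPD library but did not pass (log2 fold change 0.84, SE 0.28, edgeR adjusted *p* = 0.104). Without the matched CCA end row, the remainder was 2.69 ± 0.168% in SD and 2.38 ± 0.1004% in HPD fathers. The groups then nearly touched, at 2.501% in the lowest SD and 2.494% in the highest HPD library, a gap within the counting interval.

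**Figure D5:**
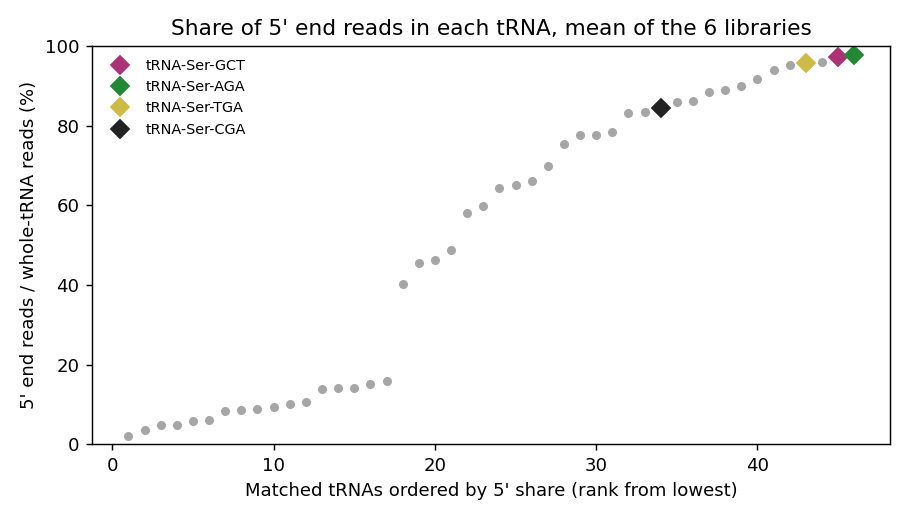
Share of 5' end reads in the whole-tRNA reads (vertical axis, in %) for the 46 matched tRNAs with a 5' end row, ordered from the lowest to the highest, as means of the 6 libraries, with the serine isoacceptors as coloured diamonds. tRNA-Ser-AGA, tRNA-Ser-GCT and tRNA-Ser-TGA stand at 95.8% to 97.7%, at the upper end, and tRNA-Ser-CGA at 84.3%.

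Compared with tRNAs that share features with serine tRNA, the selenocysteine tRNA rose like tRNA-Ser-GCT but differed in its fragments. tRNA-SeC-TCA was at 5655, 3864 and 5037 CPM under SD and at 13006, 14094 and 9633 under HPD, and it rose (log2 fold change 1.34, SE 0.23, edgeR adjusted *p* = 0.00504). Its 5' end row was called as well (log2 fold change 0.94, SE 0.20, adjusted *p* = 0.0162), but not without CTRL2, CTRL3, HPD2 or HPD3 (0.95 to 1.03, adjusted *p* from 0.0504 to 0.103). This 5' end row made up 14.1% of the reads of tRNA-SeC-TCA as a mean over the libraries, against 97.2% in tRNA-Ser-GCT. The 3' end row held 16, 7 and 71 reads in the SD libraries and 2, 3 and 5 under HPD. It was called lower (log2 fold change −3.63, SE 0.99, adjusted *p* = 0.0488), but CTRL3 decided its size (−1.85, adjusted *p* = 0.577 without it), and it was not called without CTRL2, HPD2, HPD3 or HPD7 either and did not pass the filter without CTRL1. The leucine tRNAs have a long variable arm like the serine tRNAs. Of their 15 rows 14 were tested, with 5 called higher and none lower. The calls were on 2 whole-tRNA rows, on the 5' end rows of the same tRNAs, whose reads are counted again, and on 1 row of 3' ends. In the same direction 2.21% of all rows tested were called, as were 25.5% of the matched whole-tRNA, 23.9% of the 5' end and 22.5% of the 3' end rows. The log2 fold changes of the 5 whole-tRNA rows of leucine lay between 0.20 and 1.10 with a median of 0.80. The median of the serine whole-tRNA rows was 0.70, and the difference between the lists was not tested.

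By the root mean square difference of centred log2 levels over the 6 libraries, each isoacceptor was set beside the 46 other matched whole-tRNA rows. The diet difference is part of these levels. Near rows thus have similar log2 fold changes in large part by the way they were chosen. The nearest to tRNA-Ser-GCT were tRNA-Ala-TGC (difference 0.10, median of all others 0.47), tRNA-SeC-TCA (0.19) and tRNA-Ile-AAT (0.19). Their log2 fold changes were 1.01, 1.34 and 1.01, and each of these rows was called higher. The call of tRNA-Ala-TGC ended without CTRL2, HPD2 or HPD3, and that of tRNA-Ile-AAT without these or CTRL1, with log2 fold changes of 0.98 to 1.06 and of 0.86 to 1.07 there. tRNA-Ser-AGA and tRNA-Ser-TGA were each other's nearest row, with a difference of 0.04 (medians of all others 0.35 and 0.33), followed by tRNA-Leu-CAA for both (0.14 and 0.12), then by tRNA-Cys-GCA for tRNA-Ser-AGA (0.15) and tRNA-Arg-CCT for tRNA-Ser-TGA (0.14). None of these rows passed the test. The nearest to tRNA-Ser-CGA were tRNA-Thr-TGT (0.10), tRNA-iMet-CAT (0.13) and tRNA-Ala-CGC (0.15), beside a median of 0.29, and tRNA-Thr-TGT alone of them was called (log2 fold change 0.83, edgeR adjusted *p* = 0.0272), though not without CTRL1, CTRL2, CTRL3, HPD2 or HPD3 (0.78 to 1.04). No serine isoacceptor of the TC codon box was among the nearest of tRNA-Ser-GCT or of tRNA-Ser-CGA.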

How the data were processed

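The authors trimmed adapters, discarded reads under 15 nucleotides and annotated the rest with SPORTS1.0 for the rat build Rnor_6.0. Bowtie, DESeq, DESeq2 and the build mm9 are named in the processing notes of the submitters too. One deposited table gives the authors' estimated counts, which are not normalized. The other deposited table gives a normalized count (a signal), for which the authors cut each estimated count to a whole number and scaled it by a factor of its library. Whole reads were recovered from 100% of its values in each library (within 1e-06), and edgeR run on them called 164 of 1825 rows, against 160 of 1858 in the main test.

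Columns were tied to diets, not to numbered rats. The snoRNA row names no single RNA (0.293% to 1.45% of reads) and was left out. After rounding, edgeR 4.0.16 (R 4.3.3) was run with TMM factors and filterByExpr (minimum count 10, total 15), and its quasi-likelihood *p* values were adjusted after Benjamini and Hochberg over all rows tested. The F statistic gave the standard errors. Rows not nested in another were summed to the library size, and no tRNA had end rows that exceeded its whole row. Shares and log2 ratios were tested by exact permutation, two-sided, adjusted within each set. Likeness used log2 CPM with a prior count of 2. The script was tested on simulated data, where 4.41% of the changes of 2-fold, 42.3% of 4-fold and 68.9% of 8-fold were called. The changed rows were drawn at random from all rows tested, so these shares are not those of the tRNA-Ser rows alone. A row that was not called may thus still differ. Alternatives used DESeq2 1.42.0, limma 3.58.1 on log2 normalized counts plus 1, and other factors, filters and rows. Figures used matplotlib 3.10.9.

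The text names all tRNA-Ser rows, tRNA-SeC and the 3 tRNAs nearest to each isoacceptor. Members and lists were chosen with earlier results of these data known. Sequences and read lengths were not analysed here. Replicates are individual rats according to the study.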

Additional observations from a re-analysis of the deposited data

How the results depend on the processing

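The log2 fold changes of the 11 tRNA-Ser rows stayed above 0 in every setting that tested them (10 rows with a mean normalized count of at least 50, 4 with the nested end rows left out). The calls did not hold in all of them. The 4 rows called higher became 8 with upper quartile factors and with a mean normalized count of at least 50, 2 with library size alone, 1 of 4 with the nested end rows left out, and 0 with limma (4 at an unadjusted *p* under 0.05), which called 7 of 1858 rows in all (main test 160). Leaving out 1 library gave 0 to 5 (0 without CTRL2, 2 without CTRL1, CTRL3, HPD2 or HPD3). It gave 77 to 158 calls over all rows (95, 109 and 77 without CTRL2, HPD2 and HPD3), and the fit without nested rows gave 94. tRNA-Ser-GCT was called in 15 of 17 settings (log2 fold change 0.93 to 1.45), but not with limma (1.23, adjusted *p* = 0.152) or without CTRL2. tRNA-Ser-CGA was called in 6 of 17 (0.51 to 1.02). Over all rows, the median moved from 0.03 to 0.28 with upper quartile factors and −0.09 with library size alone, and, with more rows tested, to 0.68 with no filter, so sizes are to be read against it. With mature tRNA rows alone tRNA-Ser-GCT was at 0.93 (adjusted *p* = 0.000939) and tRNA-Ser-CGA was not called (0.51, adjusted *p* = 0.0535), and 3 rows were called in that fit.

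Small differences turned their sign. None of these had passed a test, but no share or ratio could, since the smallest exact permutation *p* is 0.1 here. Leaving out 1 library gave −0.26 to 0.00075 for the log2 ratio of tRNA-Ser-AGA to tRNA-Ser-CGA, and, in percentage points, −0.178 to 0.0821 for the 5' share, −0.00695 to 0.0135 for the 3' share and −0.0751 to 0.171 for the remainder of tRNA-Ser-AGA, −0.0122 to 0.00488 for the 3' share of tRNA-Ser-GCT and −0.0271 to 0.0239 for that of tRNA-Ser-TGA. With unmatched reads added, the diets separated in tRNA-Ser-GCT over tRNA-Ser-CGA too, the ratios to tRNA-Ser-CGA differed by 0.019 for tRNA-Ser-AGA and 0.0038 for tRNA-Ser-TGA, and with 5' and 3' ends alone as the whole the differences in 5' share shrank to 0.00446 percentage points for tRNA-Ser-GCT, −0.00564 for tRNA-Ser-AGA and 0.0286 for tRNA-Ser-CGA, and turned to 0.00793 for tRNA-Ser-TGA. The cause was not tested. The shift of the tRNA-Ser-GCT share stayed at 6.65 to 9.69 percentage points and that of the family at 9.07 to 11.5 without any 1 library. The 3' end rows held at most 183 reads in a library. No paired analysis was possible because the columns cannot be tied to the replicate numbers of the labels.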

Other observations

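Reads of serine tRNAs that do not match the genome, most of which are CCA ends, did not move alike over the isoacceptors. The unmatched row of tRNA-Ser-CGA was at 88.7, 111 and 114 CPM in CTRL1, CTRL2 and CTRL3 and at 25.6, 25.3 and 26.1 in HPD2, HPD3 and HPD7. It fell by 2.02 on the log2 scale (SE 0.27, edgeR adjusted *p* = 0.00188), while the matched row of the same tRNA was higher in each HPD library. The call was lost with limma alone of 17 settings (−1.97, adjusted *p* = 0.0576). Of all 1858 rows tested, 6.4% were called lower. The unmatched row of tRNA-Ser-TGA was at 1052, 901 and 1084 CPM under SD and at 1802, 1893 and 1261 under HPD. Its groups did not overlap, and its log2 fold change of 0.71 did not pass (SE 0.23, adjusted *p* = 0.104). That of tRNA-Ser-GCT was 0.76 (adjusted *p* = 0.124), with 488, 407 and 658 CPM under SD and 961, 1002 and 672 under HPD. The unmatched row of tRNA-Ser-AGA was at 249, 255 and 298 under SD and at 260, 269 and 244 CPM under HPD, where the groups overlapped (log2 fold change −0.05, adjusted *p* = 0.951).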
